A study of Mus musculus with 8 samples.

Results

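The RNAs described here are long noncoding RNAs and noncoding host genes of small nucleolar RNAs (snoRNAs), chosen by name: Malat1, Neat1, Kcnq1ot1, Dleu2, Gas5, Snhg1, Snhg5, Snhg6, Snhg8 and Snhg12. Of these 10 genes, 8 are listed among the 41444 genes of the expression table, and all 8 entered the test. Snhg1 and Snhg8 were found under neither their symbol, their identifier nor an older name, and are not analysed here. All libraries came from macrophages grown with M-CSF from the bone marrow of wild-type C57BL/6 mice. The 4 vehicle libraries received vehicle control, and the 4 SLIT2 libraries received 6 nM SLIT2, a secreted ligand of ROBO receptors, for 16 hours. Values are regularized-log (rlog) values on a log2 scale, so a difference of 1 is a doubling. No label says whether the replicates came from separate animals or cultures, so p-values measure the spread between these libraries, which may be technical.

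Malat1 is a nuclear RNA that gathers in splicing speckles, and Neat1 is the scaffold of paraspeckles, nuclear bodies that retain proteins and RNAs. Kcnq1ot1 is an antisense RNA that silences neighbouring imprinted genes on the chromosome it is made from, and Dleu2 is the precursor of the microRNAs miR-15a and miR-16-1. The Snhg genes and Gas5 are transcribed mainly for what lies in their introns: snoRNAs, which guide chemical modification of ribosomal RNA. Their spliced exons are commonly removed by nonsense-mediated decay, and several start with a pyrimidine tract like that of ribosomal protein genes, which ties translation of the spliced RNA to growth signals.

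The small RNAs these genes are known for are shown first, because the table holds values for their hosts and hardly any for them. Dleu2 spans chr14:61602839-61682373 in GRCm38 on the minus strand, and both of its microRNAs lie within it. Their mature forms, from RefSeq (GRCm38.p6), are printed with the seed, bases 2 to 8, in capitals.
mmu-miR-15a-5p: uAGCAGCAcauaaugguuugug
mmu-miR-16-5p: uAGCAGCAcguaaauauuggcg
Both carry the seed AGCAGCA. Box C/D snoRNAs carry a box C near the 5′ end and a box D near the 3′ end, which are in capitals below (TGATGA and CTGA, GENCODE M21 sequences). They are shown for Snhg5 and Snhg6, the hosts with the lowest values under SLIT2 relative to vehicle, and for Gas5.
Snord50a in Snhg5, chr9:88521529-88521600: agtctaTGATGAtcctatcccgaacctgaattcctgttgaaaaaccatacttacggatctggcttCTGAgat
Snord50b in Snhg5, chr9:88521797-88521868: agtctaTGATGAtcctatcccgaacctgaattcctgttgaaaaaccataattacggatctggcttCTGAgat
Snord87 in Snhg6, chr1:9942463-9942549: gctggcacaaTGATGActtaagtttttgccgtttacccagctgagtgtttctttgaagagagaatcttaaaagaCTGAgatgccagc
Snord47 in Gas5, chr1:161038082-161038158: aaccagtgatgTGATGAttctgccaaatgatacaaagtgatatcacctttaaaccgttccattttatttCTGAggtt
The paired snoRNAs of Snhg5 differ at 1 of 72 positions, C50A, counted from 1 at the 5′ end of Snord50a. GENCODE M21 places 27 snoRNA genes inside the 10 genes, and both boxes were found in 17 of them. The search asked for these exact letters near the ends. The 27 include genes named Snora, which are not box C/D snoRNAs, and more than 1 entry each for Snord80 and Snora16a. Of the 25 listed in the table, 23 stood at 0 in every library, as did both microRNA genes. Snord22, inside Snhg1, held values between 0.85 and 0.98, and Snord87 between 0.09 and 0.15. The libraries were made with an mRNA kit, so the values below describe the host RNAs and not the small RNAs cut from them.

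The starts of 4 host genes are shown because such a tract can be read from them, and was found in some and not in others. The windows run from 30 bases before to 30 bases after an annotated RefSeq start (GRCm38.p6), with any tract of a C followed by at least 5 C or T in capitals, searched on the gene's strand from 10 bases before to 15 after the start.
Gas5, the second of its starts, chr1:161035136-161035195, plus strand: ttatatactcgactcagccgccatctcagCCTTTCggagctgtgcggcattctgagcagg
Snhg12, chr4:132308648-132308707, plus strand: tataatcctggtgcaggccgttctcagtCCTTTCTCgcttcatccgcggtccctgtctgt
Snhg8, chr3:123508307-123508366, minus strand: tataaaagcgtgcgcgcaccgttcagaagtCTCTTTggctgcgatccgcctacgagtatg
Snhg5, chr9:88522868-88522927, minus strand: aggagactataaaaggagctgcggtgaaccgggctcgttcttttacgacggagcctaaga
Of the 6 windows of host genes, 3 held such a tract, while those of Snhg5, Snhg1 and the other start of Gas5 did not, and Snhg6 has no entry. Of the 9 windows of all these genes 4 held it, the fourth being that of Dleu2. The same search found it in 18.5% of 32817 promoters and in 49.2% of 63 promoters of genes named Rpl or Rps. The motif TTCNNNGAA, the core of STAT sites, was searched on both strands of the 300 bases and was in none of the 9 windows of these genes, against 8.29% of all promoters. The E-box CACGTG was in 1 of the 9, that of Dleu2, against 7.15% of all. TATAAA was in 4 of the 9, those of Snhg1, Snhg5, Snhg8 and Dleu2, against 13.6% of all. A match is a description of the letters and not of a factor's binding.

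The libraries fall into sets by replicate number. Replicates 1 and 2 stand apart from replicates 3 and 4 in both groups, with Xist at 7.54 ± 0.077 (SD, n = 4) against 12.7 ± 0.044 (SD, n = 4). Ddx3y, a Y-linked gene, stood at 10.8 ± 0.039 and 6.23 ± 0.23 (SD, n = 4). Same-numbered libraries deviated together, which the sets alone can give, and no label says that equal numbers mark pairs. Results are given without and with replicate number as a block. All 12 macrophage marker genes were tested, as were 6 of 9 stromal and endothelial and 5 of 7 osteoclast markers. Fewer were tested of the neutrophil (3 of 8), monocyte (3 of 8) and dendritic cell (2 of 8) markers. The same held for lymphocyte (1 of 9), mast cell (1 of 6) and erythroid and megakaryocyte (1 of 8) markers. Socs3 rose by 4.52 with SLIT2, from 7.84 ± 0.091 to 12.4 ± 0.14 (SD, n = 4).

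**Figure D1:**
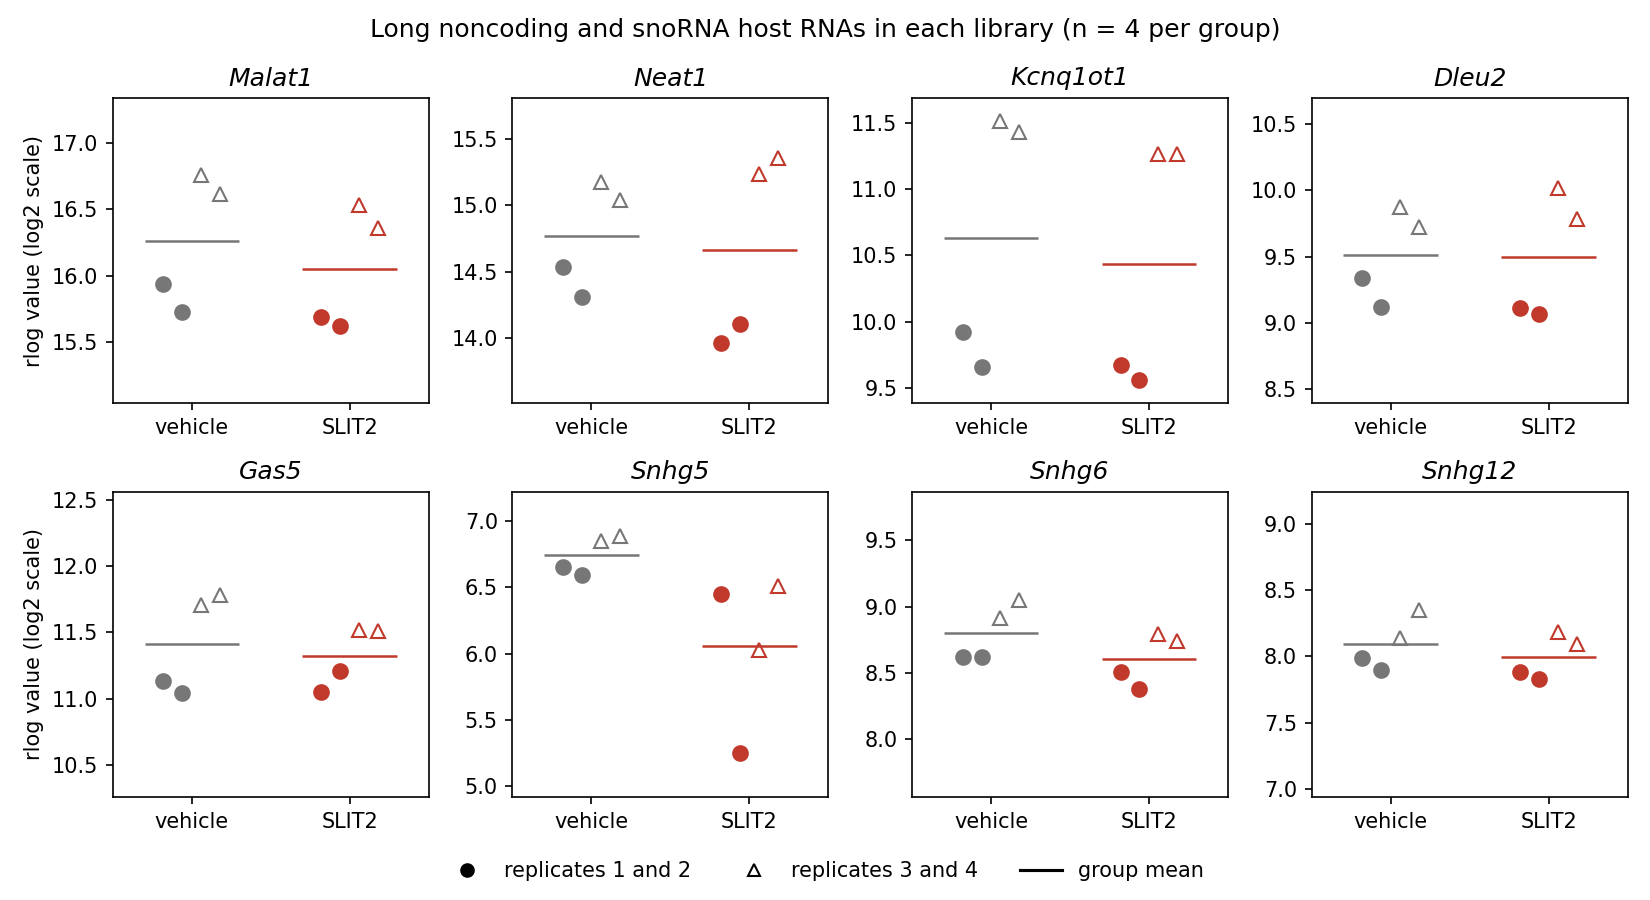
Rlog value (log2 scale) of each RNA in each library, by group, with the group mean as a line; filled circles are replicates 1 and 2, open triangles replicates 3 and 4, and all panels span the same range. Every RNA but Snhg5 differs more between the symbols than between the groups, and only the Snhg5 groups do not overlap.

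Whether these RNAs passed the threshold against vehicle depended on the fit. None did by treatment only, and 4 did with replicate number or replicate set as a block. None of the 8 passed limma's test at an adjusted p of 0.05, where 13.3% of the 11851 genes tested did (6.76% higher and 6.58% lower); 1 of the 8, Snhg5, had an unadjusted p under 0.05. All 8 estimates were below 0, with a median of -0.15 (0.0025 over all genes tested). With replicate number as a block, 4 of the 8 passed (Malat1, Kcnq1ot1, Snhg5 and Snhg6), all lower, where 33% of all genes passed and 16.4% passed as lower. With the replicate set as a block, which assumes no pairs, the same 4 passed. Their limma adjusted p, in that order, were 0.0220, 0.0239, 0.0418 and 0.0149, where 4652 of the 11851 genes passed. The sets were recognised in these same libraries. With the replicates of a set averaged to 1 sample per group and the set in the fit (averaged duplicates below), 0 of the 8 passed. There 5.81% of all genes did (3.15% higher and 2.66% lower). That fit rests on 1 averaged sample per set and group, so a call missed there does not show that nothing changed. Yam1, which lies over ribosomal RNA, moved beside the treatment, at 19.2 to 20.7 in vehicle and 17.5 to 19.2 in SLIT2 (-1.68, adjusted p = 0.0577). Of the 12 macrophage markers, 3 rose and 1 fell, and their summed level ran from 19.29 to 19.78 in vehicle and from 19.34 to 19.84 in SLIT2. Summed markers of 4 other cell types did not overlap between the groups. The neutrophil sum (8 listed, 2 at 0) was higher with SLIT2, at 11.27 to 11.47 in vehicle and 11.88 to 12.24 in SLIT2. The dendritic cell sum (8 listed) was lower, at 9.93 to 10.43 and 9.30 to 9.78, as were the lymphocyte sum (9 listed, 1 at 0), at 9.89 to 10.26 and 9.42 to 9.78, and the mast cell sum (6 listed, 3 at 0), at 5.27 to 5.72 and 4.87 to 5.23. Their part in the values of these RNAs was not tested.

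Malat1, the speckle RNA, is a single stretch on chr19:5795690-5802672, minus strand. Its vehicle libraries held 15.94, 15.73, 16.76 and 16.62, and its SLIT2 libraries 15.69, 15.62, 16.53 and 16.36, in the order of replicates 1 to 4. The groups overlap, and each SLIT2 library lies below the vehicle library of the same number, by 0.11 to 0.26. Over all libraries the difference was -0.21 (SE 0.29, 95% interval -0.89 to 0.46, adjusted p = 0.728). With the block, limma gave the same difference an interval of -0.31 to -0.11 and an adjusted p of 0.00979 (0.145 with averaged duplicates). A short gene on the other strand within Malat1, Gm37376, shares all 453 of its exonic bases with it, and its values, between 5.65 and 6.24, were also higher in replicates 3 and 4. The library kit keeps strand, but whether counting used it is not stated in the labels, so reads of Gm37376 and Malat1 cannot be told apart.

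Neat1, the paraspeckle scaffold, lies next to Malat1 on chr19:5824708-5845478, minus strand. Its vehicle libraries held 14.54, 14.31, 15.18 and 15.04, and its SLIT2 libraries 13.96, 14.11, 15.24 and 15.36. In replicates 1 and 2 both SLIT2 values lie below both vehicle values, and in replicates 3 and 4 both lie above. The difference over all libraries was -0.10 (SE 0.36, 95% interval -0.93 to 0.73, adjusted p = 0.906, and 0.613 with the block). It was -0.39 within replicates 1 and 2, against 0.19 within replicates 3 and 4. A limma test of the difference between these effects gave 0.58 (SE 0.12, adjusted p = 0.0372), where 4.4% of all genes passed (2.12% higher and 2.28% lower); 0 of the other 7 RNAs did. That test rests on the spread within duplicates. Its call was lost without vehicle replicate 1 or 4 or any 1 of the 4 SLIT2 libraries, with adjusted p between 0.0574 and 0.122.

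**Figure D2:**
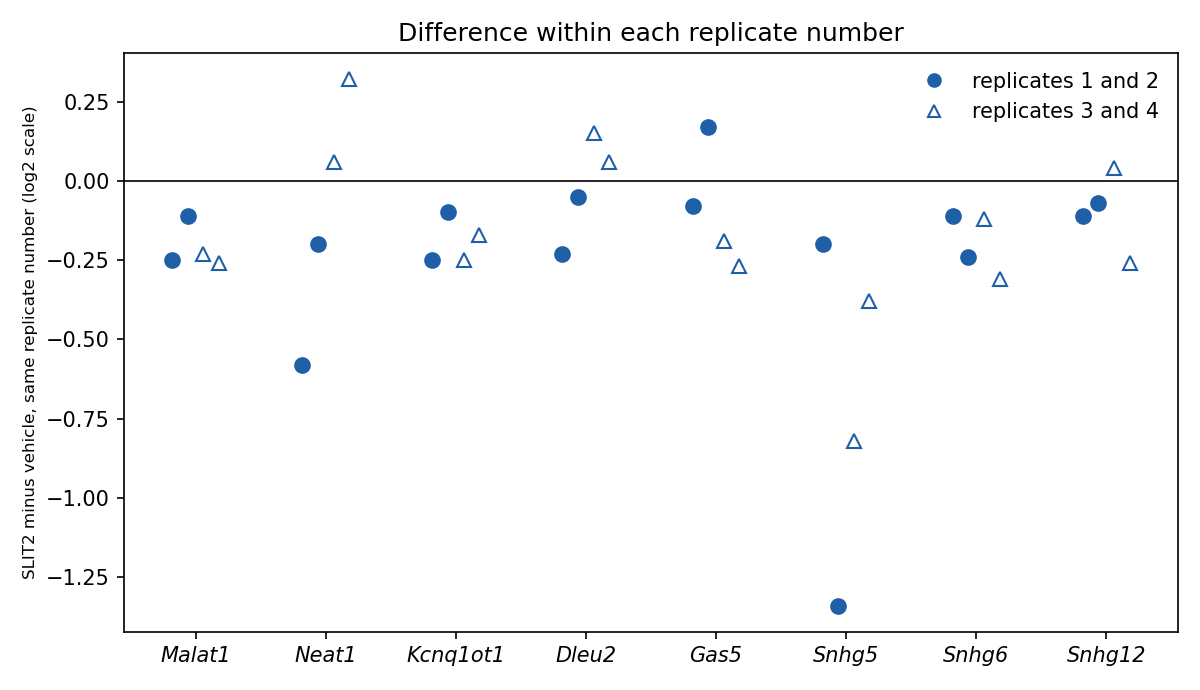
SLIT2 minus vehicle (log2 scale) between libraries of the same replicate number for each RNA; filled circles are replicates 1 and 2, open triangles replicates 3 and 4. Neat1 and Dleu2 lie below 0 in replicates 1 and 2 and above 0 in replicates 3 and 4, while Malat1, Kcnq1ot1, Snhg5 and Snhg6 lie below 0 at every number.

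The ratio of the neighbouring RNAs did not separate the groups. Malat1 minus Neat1 was 1.40, 1.42, 1.58 and 1.58 in vehicle libraries and 1.73, 1.51, 1.29 and 1.00 in SLIT2 libraries. The groups overlap. The mean difference was -0.11 (two-sided exact permutation p = 0.571 over 70 arrangements, the smallest possible being 0.0286).

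Kcnq1ot1 covers 93092 bases of chr7:143203458-143296549 on the minus strand, opposite to Kcnq1. Its vehicle libraries held 9.92, 9.66, 11.51 and 11.43, and its SLIT2 libraries 9.67, 9.56, 11.26 and 11.26. Its widest gap is between the sets, and within each set the SLIT2 libraries sit slightly below their vehicle counterparts. The difference was -0.19 (SE 0.58, 95% interval -1.53 to 1.14, adjusted p = 0.888). With the block it had an interval of -0.28 to -0.10 and an adjusted p of 0.0106, and 0.0996 with averaged duplicates. Kcnq1, which it overlaps, stood between 0.57 and 0.67 in all libraries and was not tested. Of 7 tested genes of the imprinted domain, 1 rose and 1 fell by limma, where 13.3% of all genes passed. Tspan32, a tetraspanin gene, rose by 0.36 (SE 0.079, adjusted p = 0.0215). Slc22a18, a transporter gene, fell by 0.53 (SE 0.086, adjusted p = 0.00550). With averaged duplicates 0 of the 7 passed. Of the 7, 6 had a negative difference, and the median was -0.075.

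Dleu2, the host of miR-15a and miR-16-1, held 9.34, 9.12, 9.87 and 9.72 in vehicle and 9.11, 9.07, 10.02 and 9.78 in SLIT2. As with Neat1, the differences within a number were negative in replicates 1 and 2 and positive in replicates 3 and 4, and the difference between the effects did not pass (0.24, SE 0.14, limma adjusted p = 0.388). Over all libraries the difference was -0.018 (SE 0.25, 95% interval -0.60 to 0.57, adjusted p = 0.979, and 0.863 with the block). Spryd7, from a list of genes on its chromosome, fell by 0.59 (SE 0.15, limma adjusted p = 0.0363). It was the 1 of 6 tested that passed, where 13.3% of all genes did, and that list reaches 2366 kb from Dleu2. Within 500 kb of Dleu2, 2 of 9 tested genes passed, 0 of them higher, with a median of -0.17. Trim13, which overlaps Dleu2 on the other strand without shared exonic bases, ranged from 7.61 to 7.92.

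Among the snoRNA hosts, Snhg5 had the widest difference. Its vehicle libraries held 6.65, 6.59, 6.85 and 6.89, and its SLIT2 libraries 6.45, 5.25, 6.03 and 6.51. Every SLIT2 library is below every vehicle library, and SLIT2 replicate 2 is the lowest. Groups that do not overlap were found at 20.5% of all genes tested, and at 9.99% with SLIT2 lower. The SLIT2 mean, 6.06 ± 0.58, was 0.685 below the vehicle mean, 6.75 ± 0.15 (SD, n = 4), or 62.2% of it on a linear scale. Limma gave an SE of 0.26, a 95% interval of -1.29 to -0.084 and an adjusted p of 0.139. With the block the adjusted p was 0.0340, and 0.0520 with averaged duplicates. Without SLIT2 replicate 2 the difference was -0.41 (limma adjusted p = 0.136), and over all 8 fits with 1 library left out the adjusted p ran from 0.0952 to 0.248. The gene lies on chr9:88521050-88522929, minus strand, and rlog shrinks differences most at low counts.

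Snhg6 held 8.62, 8.62, 8.91 and 9.05 in vehicle and 8.51, 8.38, 8.79 and 8.74 in SLIT2. The groups overlap, and each SLIT2 library is below its numbered vehicle library, by 0.11 to 0.31. The difference was -0.20 (SE 0.13, 95% interval -0.50 to 0.11, limma adjusted p = 0.409), with 0.0366 under the block and 0.145 with averaged duplicates. Snhg6, on chr1:9941959-9944118, shares 127 exonic bases with Mcmdc2 on the other strand, whose values ran from 5.78 to 6.81 and were higher in replicates 3 and 4.

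Snhg12 and Gas5 showed smaller differences. Snhg12 (chr4:132308623-132311024) held 7.99, 7.90, 8.14 and 8.35 in vehicle and 7.88, 7.83, 8.18 and 8.09 in SLIT2, and the groups overlap. Its difference was -0.10 (SE 0.12, 95% interval -0.38 to 0.18, adjusted p = 0.678, and 0.283 with the block). Gas5, named for its rise in growth-arrested cells (chr1:161034422-161038539), held 11.13, 11.04, 11.71 and 11.78 in vehicle and 11.05, 11.21, 11.52 and 11.51 in SLIT2. Its groups overlap as well. The Gas5 difference was -0.092 (SE 0.19, 95% interval -0.54 to 0.35, limma adjusted p = 0.832, and 0.358 with the block), with 0.045 within the first set and -0.23 within the other. The test of the difference between these effects gave an adjusted p of 0.102.

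**Figure D3:**
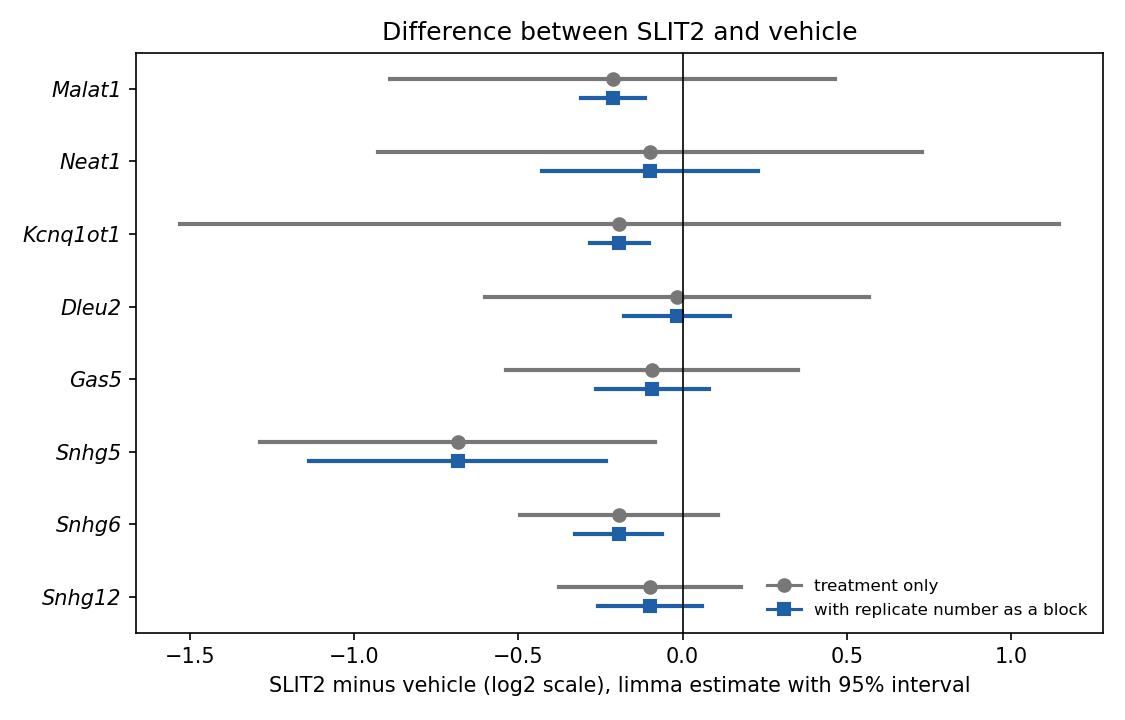
SLIT2 minus vehicle (log2 scale) for each RNA with limma's 95% interval, for the fit with treatment only (grey) and with replicate number as a block (blue). The grey intervals include 0 for 7 of the 8 RNAs; that of Snhg5 does not, and its p did not pass after adjustment over all genes.

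The intervals without the block allow sizable changes. On a linear scale they allow a SLIT2 level of Kcnq1ot1 between 34.6% and 221% of vehicle, of Neat1 between 52.6% and 166%, of Malat1 between 54.0% and 138%, and of Dleu2 between 65.9% and 148%. For Snhg5 they were 41.0% and 94.3%, for Gas5 68.9% and 128%, for Snhg6 70.9% and 108%, and for Snhg12 77.0% and 113%. The bounds are the levels that fit leaves possible and not a limit of detection, and those of Snhg5 lie below the vehicle level. With the block the intervals of Malat1 and Kcnq1ot1 were narrower, as given above.

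Between the replicate sets 7 of the 8 RNAs differed by more than between SLIT2 and vehicle, all but Snhg5. The sets were recognised in these libraries, so what follows describes them and is no independent test. By limma, 7 of the 8 were higher in replicates 3 and 4, where 57% of all genes were called, 25.8% higher and 31.2% lower. The values of the sets did not overlap at these 7, where the same held for 36.3% of all genes, and for 17.2% with replicates 3 and 4 higher. The median difference of the 8 was 0.61, against -0.010 over all genes tested. Kcnq1ot1 was higher by 1.66, from 9.70 ± 0.15 to 11.4 ± 0.13 (SD, n = 4), a 3.17-fold level. Neat1 was higher by 0.98, Malat1 by 0.82, Dleu2 by 0.69, Gas5 by 0.52, Snhg6 by 0.34 and Snhg12 by 0.29. The nuclear RNAs Malat1, Neat1, Kcnq1ot1 and Dleu2 had a median of 0.90, and the 4 snoRNA hosts of 0.34. Snhg5 differed by 0.33, its sets overlap, and it was not called.

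Within vehicle and within SLIT2 the difference between the sets had the same sign for all 8. For Kcnq1ot1 it was 1.68 in vehicle and 1.64 in SLIT2, for Malat1 0.85 and 0.79, for Snhg6 0.36 and 0.32, and for Snhg12 0.30 and 0.28. It was further apart for Gas5 (0.66 and 0.38), Dleu2 (0.56 and 0.81) and Snhg5 (0.25 and 0.42), whose difference in effect did not pass the test. For Neat1 it was 0.69 in vehicle and 1.26 in SLIT2, which is the difference in effect given above in other terms.

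**Figure D4:**
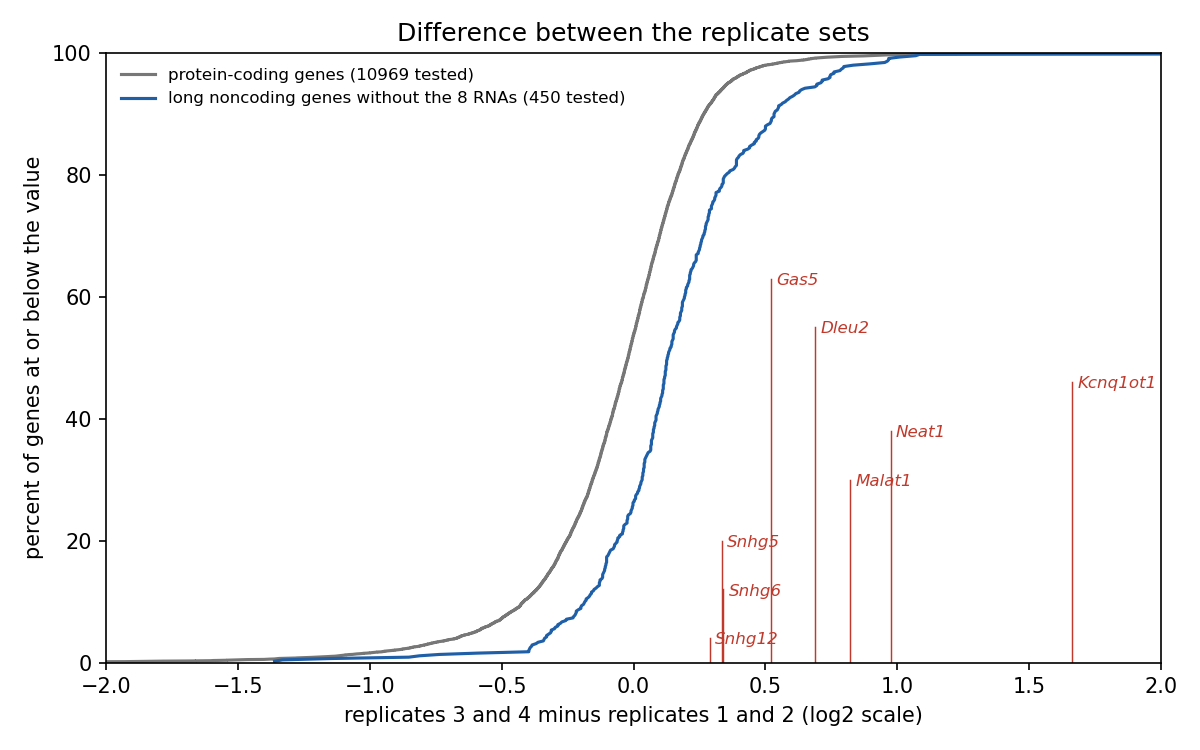
Cumulative share of genes by the difference between replicates 3 and 4 and replicates 1 and 2 (log2 scale), for 10969 protein-coding genes and for the 450 other long noncoding genes tested; red lines mark the 8 RNAs, their heights only separate the names, and genes beyond 2 in either direction are not drawn. All 8 lie right of 0, from Snhg12 at 0.29 to Kcnq1ot1 at 1.66.

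Other long noncoding genes were also more often higher in replicates 3 and 4. Of the 450 of GENCODE's long noncoding types, without the 8, 169 were higher (37.6%) and 42 lower, with a median of 0.13. Of 10969 protein-coding genes 24.6% were higher, with a median of -0.020. Genes named Rpl or Rps, which encode ribosomal proteins, were higher for 48 of 77, with a median of 0.14. Chromosomal neighbours were mixed. Within 500 kb of Malat1, 11 of 47 tested genes were higher in replicates 3 and 4 and 12 lower, with a median of 0.018, and within 500 kb of Neat1 11 of 50 were higher and 14 lower. A shorter list of 14 of these neighbours had 1 higher and 7 lower. Within 500 kb of Dleu2, 6 of 9 were higher and 1 lower, with a median of 0.25. With SLIT2, 4 of the 47 genes near Malat1 and 4 of the 50 near Neat1 rose and 0 fell, where 13.3% of all genes passed; these windows share genes. On the list of 14, 0 passed limma's test (1 at an unadjusted p under 0.05, 2 with the block and 0 with averaged duplicates). Cdc42ep2, an effector of the GTPase CDC42, had the smallest p of these, at 0.37 (SE 0.12, adjusted p = 0.0874).

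Other features moved with the sets. Yam1 differed by -1.36. The summed macrophage marker level (12 of 12 listed, none at 0) ran from 19.76 to 19.84 in the first set and from 19.29 to 19.40 in the other. Also lower in replicates 3 and 4, without overlap, were the summed monocyte markers (8 listed), at 10.00 to 10.20 and 9.67 to 9.88, and osteoclast markers (7 listed, 1 at 0), at 11.02 to 11.37 and 10.82 to 10.94. The same held for erythroid and megakaryocyte markers (8 listed, 2 at 0), at 10.50 to 12.28 and 9.01 to 10.33. Only 1 of these 8 was tested, Pf4, which differed by -1.74 between the sets. Of 3 monocyte markers tested, 1 was higher in replicates 3 and 4 and 1 lower. Of 5 osteoclast markers tested, 0 were higher and 4 lower. The summed level of 15 mitochondrial transcripts ran from 20.44 to 20.50 and from 20.50 to 20.66. Their part in the difference was not tested. In bulk RNA, fewer cells of a type and less RNA per cell cannot be told apart.

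Levels were compared between the RNAs per exonic length, as the mean rlog less the log2 of the exonic kilobases in GENCODE M21. Malat1 was highest at 13.4, followed by Neat1 at 10.3, Gas5 at 9.46, Snhg6 at 8.51, Snhg12 at 6.78, Dleu2 at 6.00, Snhg5 at 5.61 and Kcnq1ot1 at 3.99. The ranges over the 8 libraries overlap for the neighbours Neat1 and Gas5, Dleu2 and Snhg5, and Snhg5 and Kcnq1ot1. Malat1 (12.8 to 14.0), Gas5 (9.13 to 9.87), Snhg6 (8.18 to 8.85) and Snhg12 (6.57 to 7.09) do not overlap the next lower RNA. The order depends on the lengths, which include retained introns and, for Neat1, the long isoform of 20771 bases. Without length, rlog of Kcnq1ot1 averaged 10.5, and its 93092 bases place it last.

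Across the 8 libraries most of these RNAs followed the same order. Malat1 and Kcnq1ot1 had a Pearson correlation of 0.98 and Malat1 and Gas5 of 0.94, while Snhg5 correlated with the others at 0.32 to 0.69. These points share the sets, and the values are a description. Of 9719 named genes with a mean of at least 6, the most alike to Malat1 were BC051077 (r = 0.99), Hsd3b2 and Lrif1. Neat1 was most like Cops5, Exosc3 and Tdrd7, and Gas5 most like Ranbp9, with Ikbkap also among its 3 closest. Kcnq1ot1 was most like Gcfc2, Bckdhb and Hsd3b2, and Dleu2 most like Arid2, Ptbp2 and Tnpo3. Snhg6 was most like Mcoln3, Uap1l1 and Tatdn2, and Snhg12 most like Dtd2, Zfp771 and Mrpl11. Snhg5 reached 0.94 with Smim8, followed by Sh3glb2 and Dctpp1.

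Other noncoding RNAs gave a reference for the treatment comparison. Of 8 other noncoding snoRNA hosts tested, 1 fell, Zfas1, by 0.16 (SE 0.045, limma adjusted p = 0.0473), from 9.29 to 9.12, and the median was -0.080. That call was lost with averaged duplicates, with median centring, with quantile normalization, without a filter on low values, with a minimum change of 0.1 and with any 1 library left out. Of 23 further long noncoding RNAs, 1 rose and 1 fell, and 4 rose and 3 fell with the block (3 passed with averaged duplicates). Hotairm1, an RNA of the HoxA cluster, rose by 0.44 (SE 0.089, adjusted p = 0.0145), and Gm26917 fell by 0.67 (SE 0.17, adjusted p = 0.0399). AW112010, an immune-induced noncoding RNA, was chosen after seeing its values and differed by 1.18 (adjusted p = 0.102, and 1.03e-04 with the block). Of all 450 other long noncoding genes, 17 rose and 25 fell (9.33%), with a median of 0.

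By treatment only, 10% of the paraspeckle and 4.35% of the speckle and SR protein genes passed, where 13.3% of all genes did. Of 20 paraspeckle proteins tested, 2 rose and 0 fell, Cpsf7, a polyadenylation factor, by 0.18 and Fam98a by 0.15 (limma adjusted p = 0.0216 and 0.0482). With the block 4 rose and 2 fell, where 33% of all genes passed, and with averaged duplicates 0 passed. The core proteins Sfpq and Nono differed by 0.015 and 0.0025 (adjusted p = 0.867 and 0.982). Of 23 speckle and SR proteins, 1 rose, the splicing factor gene Srsf4, by 0.16 (limma adjusted p = 0.0451). With the block 7 rose and 0 fell, where 16.6% of all genes passed as higher and 16.4% as lower. With averaged duplicates 0 passed, and the call of Srsf4 was also lost without a filter on low values, without the variance trend, with either other scaling and with the minimum change. Of the 23 differences 2 were negative, and the median was 0.067. Between the sets, 15 of the 23 were higher in replicates 3 and 4, where 25.8% of all genes were.

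Genes for making snoRNPs, the protein complexes of snoRNAs, were higher for 2 of 20 and lower for 0, a share of 10% where 13.3% of all genes passed, and 0 passed with averaged duplicates. Pih1d1, of the assembly machinery, rose by 0.41 (SE 0.075, limma adjusted p = 0.00948), and Nufip1, an assembly factor, by 0.26 (adjusted p = 0.0254). Of 37 protein-coding genes that also host snoRNAs, 0 passed (2 at an unadjusted p under 0.05, 3 lower with the block and 0 with averaged duplicates), and the median was -0.035. Ncl, which encodes nucleolin, had the smallest p of these, at -0.19 (SE 0.058, adjusted p = 0.0619, blocked 0.00318, averaged 0.0962).

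By treatment only, 11.1% of nonsense-mediated decay factors passed, and 0% of the nuclear exosome and of the tRNA-like end factors. Of all genes 13.3% passed, and 33% with the block. Of 18 factors of nonsense-mediated decay, 1 rose and 1 fell, Pnrc2 by 0.19 and the helicase gene Dhx34 by 0.22 (limma adjusted p = 0.0151 and 0.0292); 4 rose and 1 fell with the block, and 0 passed with averaged duplicates. Of 21 nuclear exosome and decay factors, 0 passed (1 at an unadjusted p under 0.05, 2 higher with the block and 0 with averaged duplicates). Of 12 factors that cut or modify tRNA-like ends, such as that of Malat1, 0 passed (0 at an unadjusted p under 0.05, 1 higher with the block and 0 with averaged duplicates). Pop5, an RNase P subunit, had the smallest p of these, at 0.26 (adjusted p = 0.284, blocked 0.0234, averaged 0.141). Pabpn1, the nuclear poly(A)-binding protein, differed by 0.21 (adjusted p = 0.177, blocked 0.00253, averaged 0.0790).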

How the data were processed

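The deposited values are rlog values on a log2 scale, which the authors gave to 2 decimals. The submitters' processing notes name the builds mm10 and GRCm38 and the tools STAR, Salmon, DESeq2, Picard 2.23.8, SAMtools 1.7 and FastQC 0.11.9, without roles, settings or strand handling. The table gives no counts, so depth and counting error are unknown. limma 3.58.1 (R 4.3.3) was fitted to genes whose mean rlog was 4 or more (trend on, two-sided, Benjamini-Hochberg over 11851 genes, threshold 0.05). The fit was by treatment only, and again with a replicate block, a set block, averaged duplicates and a treatment-by-set interaction. The steps were tested on simulated data.

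Same-numbered libraries deviated together from their group means (correlations 0.637, 0.671, 0.753 and 0.587 across genes), and the number was used as a block. The sets alone can give such correlations. Libraries of different number within a set were not compared, so pairing by number is assumed and not shown. Gene models came from GENCODE M21 and promoters from RefSeq; figures used matplotlib 3.10.9. The RNAs, sets and gene lists were chosen with earlier results of these data known. Named are the 8 RNAs, from the lists the widest called change per direction or else the smallest p (marker and mitochondrial lists as counts or summed levels only), and the 3 most correlated genes of each RNA, of which 1 is not reported here. Fam98a, Nufip1, Sfpq, Nono, Trim13, Mcmdc2, Gm37376, Kcnq1, Yam1 and AW112010 were named after their values were seen.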

Additional observations from a re-analysis of the deposited data

Results flagged for a closer look

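The SLIT2 effect on Neat1 differed between the replicate sets. It was 0.58 higher in replicates 3 and 4 than in replicates 1 and 2 (log2 scale, SE 0.12, limma adjusted p = 0.0372), with both numbers of the first set lower under SLIT2 and both of the second higher. Of 15 alternatives, 6 kept the call, with adjusted p from 0.0331 to 0.122 over all of them.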

How the results depend on the processing

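The 1581 genes called in all libraries became 3912 with the replicate block, 4652 with the replicate set as a block, 886 with a minimum change of 0.1, 688 with averaged duplicates, 3962 in replicates 1 and 2 only, 2880 in replicates 3 and 4 only, and 1021 (without SLIT2 replicate 2) to 1254 with 1 library left out. Of the 8 RNAs, 4 passed with the replicate block and 4 with the set as a block, 1 in replicates 1 and 2 only and 2 in replicates 3 and 4 only, and 0 to 0 with 1 library left out. The number whose effect differed between sets fell from 1 to 0 without a filter on low values, without the variance trend and with the minimum change, and was 0 to 1 with 1 library left out. The number higher in replicates 3 and 4 was 7 to 8. Malat1 minus Neat1 ran from -0.23 to 0.015 with 1 library left out, and paired by number it gave an exact p of 0.750.

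Directions turned for Neat1 (0.19) and Dleu2 (0.105) in replicates 3 and 4 only and for Gas5 (0.045) in replicates 1 and 2 only. With 1 library left out, Neat1 ran from -0.33 to 0.14, Gas5 from -0.22 to 0.029, Kcnq1ot1 from -0.52 to 0.10 and Dleu2 from -0.19 to 0.12; such a fit leaves the sets unequal between the groups. The cause of these shifts was not tested. Malat1, Snhg5, Snhg6 and Snhg12 kept a negative difference in all 20 alternatives. With 1 library left out, 0 to 1 of the paraspeckle, speckle and Dleu2 neighbour lists passed, and 1 to 2 of the snoRNP, decay (nonsense-mediated), imprinted domain and further long noncoding lists. Of 460 recomputed counts of the gene lists, 293 were within 1.5 times, 99 lower and 68 higher. The depth is unknown, so what it limits cannot be given.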
